A study of Mus musculus with 6 samples.

Results

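A set of 9 transcription factor genes that mark the layers of the cerebral cortex were followed in visual cortex with and without *Chrdl1*. The genes were *Cux1*, *Cux2* and *Rorb* for the upper layers and *Fezf2*, *Bcl11b*, *Tbr1*, *Tle4*, *Foxp2* and *Etv1* for the deep layers. They were taken by symbol from the 24453 gene rows of the expression table, and all 9 were found, each in 1 row. All 9 also passed the filter for low values, a mean of 1 FPKM or more over the libraries, which 12863 genes passed. FPKM counts fragments relative to exon length and to the sequencing depth, so a comparison between genes depends on the length given to each row.

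The tested mice were knockouts of *Chrdl1* (KO, 3 libraries) and the controls were wild type (WT, 3 libraries). All were male C57BL/6J animals aged 14 postnatal days (P14), perfused with paraformaldehyde before dissection. *Chrdl1* encodes a secreted antagonist of bone morphogenetic proteins, and the labels do not say in which cells or from which line of animals it was removed. Each library title carries a number, 1, 2 or 3, that 1 KO and 1 WT library share. The same pairs also share a longer code in the title. The last number of the title is the same in all KO libraries and another in all WT libraries, so it cannot be told apart from genotype. The labels do not say what these numbers and codes stand for, and nothing in them ties each library to its own animal. The spread behind every p-value is thus that between libraries, which may be technical.

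The cortex is built as a stack of layers whose excitatory neurons are born in order, the deep ones first. Layer identity is set largely by transcription factors that hold each other in check: FEZF2 and its target BCL11B (also called CTIP2) direct neurons of layer 5 to project below the cortex, while TBR1 directs neurons of layer 6 that project to the thalamus and represses *Fezf2* there. The homeodomain proteins CUX1 and CUX2 shape dendrites and synapses of upper layer neurons, and the nuclear receptor RORB organises layer 4, the main target of thalamic input in sensory cortex. By the age studied here the layers have formed, and these genes serve as markers of the neurons that keep them on.

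The row of *Cux1* needs a word before its values. The locus makes long transcripts for the homeodomain protein, and shorter ones for CASP, a Golgi protein with no homeodomain that shares the first exons. The row carries accession NM_198602, spans chr5:136248135-136567490 (mm10, minus strand) and is 3032 bp long. In GENCODE M21, which uses the same assembly, that accession matches a CASP-type transcript of 23 exons and 2831 bp. The homeodomain-type transcript (accession NM_009986) has 24 exons and 12862 bp, and 12 exons are identical between both. The exons of the CASP-type model cover 9.90% of the homeodomain-type transcript, 1273 bp, which are 44.97% of the CASP-type transcript. The 60 coding bases around the point where they part are shown to make clear which message the row can see. Lower case marks the last shared exon, and capitals mark the first exon of each type's own, at chr5:136258011-136258040 for the CASP type and chr5:136312979-136313008 for the homeodomain type.
CASP-type Cux1 transcript: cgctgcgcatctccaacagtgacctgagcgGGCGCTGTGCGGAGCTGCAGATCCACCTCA
homeodomain-type Cux1 transcript: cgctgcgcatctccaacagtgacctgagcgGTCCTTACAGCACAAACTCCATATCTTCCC

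The homeobox, which codes for the DNA-binding part that gives CUX1 and CUX2 their name, lies past that point. Of its 180 bases 0 fall in exons of the CASP-type model, so values of the *Cux1* row count none of them under this model. The row of *Cux2* (NM_001312908, chr5:121860216-122049851) spans by position the coding part of its matched transcript, homeobox included. By position alone the row of *Cux1* spans its homeobox too. Which exons the row of *Cux2* counts was not checked, and it is 4909 bp long where that transcript is 8784 bp. Both homeoboxes are given below from the GENCODE transcripts, with capitals at the 50 bases where they differ. They are identical at 72.2% of bases and at 46 of 60 codons' amino acids.
Cux1 homeobox: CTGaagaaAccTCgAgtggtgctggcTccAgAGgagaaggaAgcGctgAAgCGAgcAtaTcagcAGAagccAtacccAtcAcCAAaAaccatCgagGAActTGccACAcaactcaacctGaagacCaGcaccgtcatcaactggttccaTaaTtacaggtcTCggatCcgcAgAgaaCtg
Cux2 homeobox: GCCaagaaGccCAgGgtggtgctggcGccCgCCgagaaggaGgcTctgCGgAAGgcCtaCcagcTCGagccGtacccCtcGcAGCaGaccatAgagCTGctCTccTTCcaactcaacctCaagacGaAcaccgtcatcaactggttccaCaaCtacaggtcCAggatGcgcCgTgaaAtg
How reads of the other transcripts of a gene were treated when the table was reduced to 1 row per gene is not given in the file header or labels. The *Cux1* values are therefore those of the locus as the CASP-type model sees it, and are no measure of the homeodomain message alone.

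**Figure D1:**
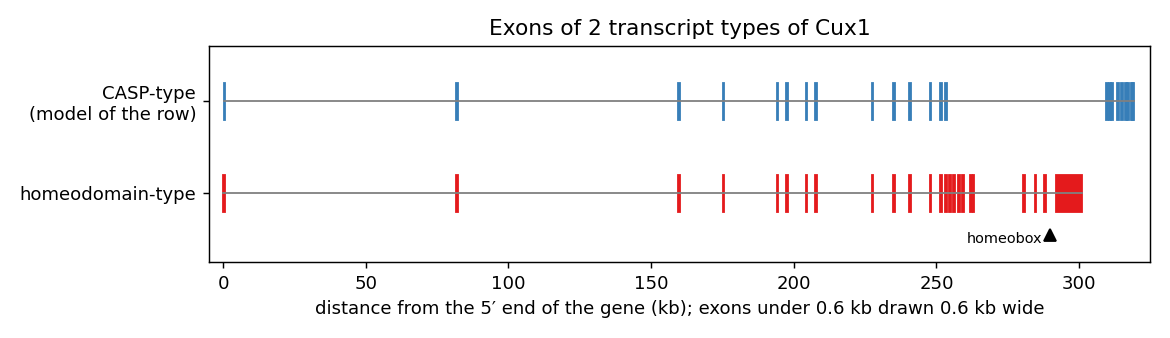
Exons (boxes) of the CASP-type and the homeodomain-type transcript of *Cux1*, by distance in kb from the 5′ end of the gene, with the homeobox marked by a triangle. The first exons coincide, the homeobox lies in exons of the homeodomain type, and the last exons of the CASP type lie beyond the end of the other.

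The libraries held 22.7 to 31.9 megareads in KO and 27.5 to 38.2 megareads in WT, as estimated from the steps of the FPKM values. *Chrdl1* stood at 0.172, 0.190 and 0.120 FPKM in KO replicates 1, 2 and 3 and at 3.65, 3.57 and 3.09 FPKM in WT replicates 1, 2 and 3, as each label has it. It was the 1 gene called among 12863 by limma at a Benjamini-Hochberg adjusted p under 0.05 (0.00777% of genes tested), with or without the title number as a block. The 9 genes of all cortical excitatory neurons passed the filter. *Slc17a7*, which encodes their vesicular glutamate transporter, ranged from 565 to 689 FPKM in KO and from 568 to 674 FPKM in WT. Markers of striatum, thalamus and hippocampus were detected too, as given below, so these values do not show that the tissue was cortex alone. In bulk tissue, fewer cells of a type and less RNA per cell cannot be told apart.

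None of the 9 layer transcription factors passed the test between KO and WT. The KO mean was between 80.9% (*Foxp2*) and 106% (*Fezf2*) of the WT mean in FPKM, and KO and WT values overlapped for all 9, where 2.95% of the genes tested did not overlap. The smallest unadjusted p was 0.120, for *Foxp2*, so that 0 of 9 were under 0.05, against 0.63% of all genes, and the adjusted p was 0.9999 for each (limma on log2(FPKM + 1), 2-sided, over 12863 genes). With the title number as a replicate block 0 of 9 were called as well, at an adjusted p of 0.999 each, and 1 of 9 (*Foxp2*) had an unadjusted p under 0.05, against 3.91% of all genes. Log2 fold changes below are KO minus WT on the log2(FPKM + 1) scale.

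**Figure D2:**
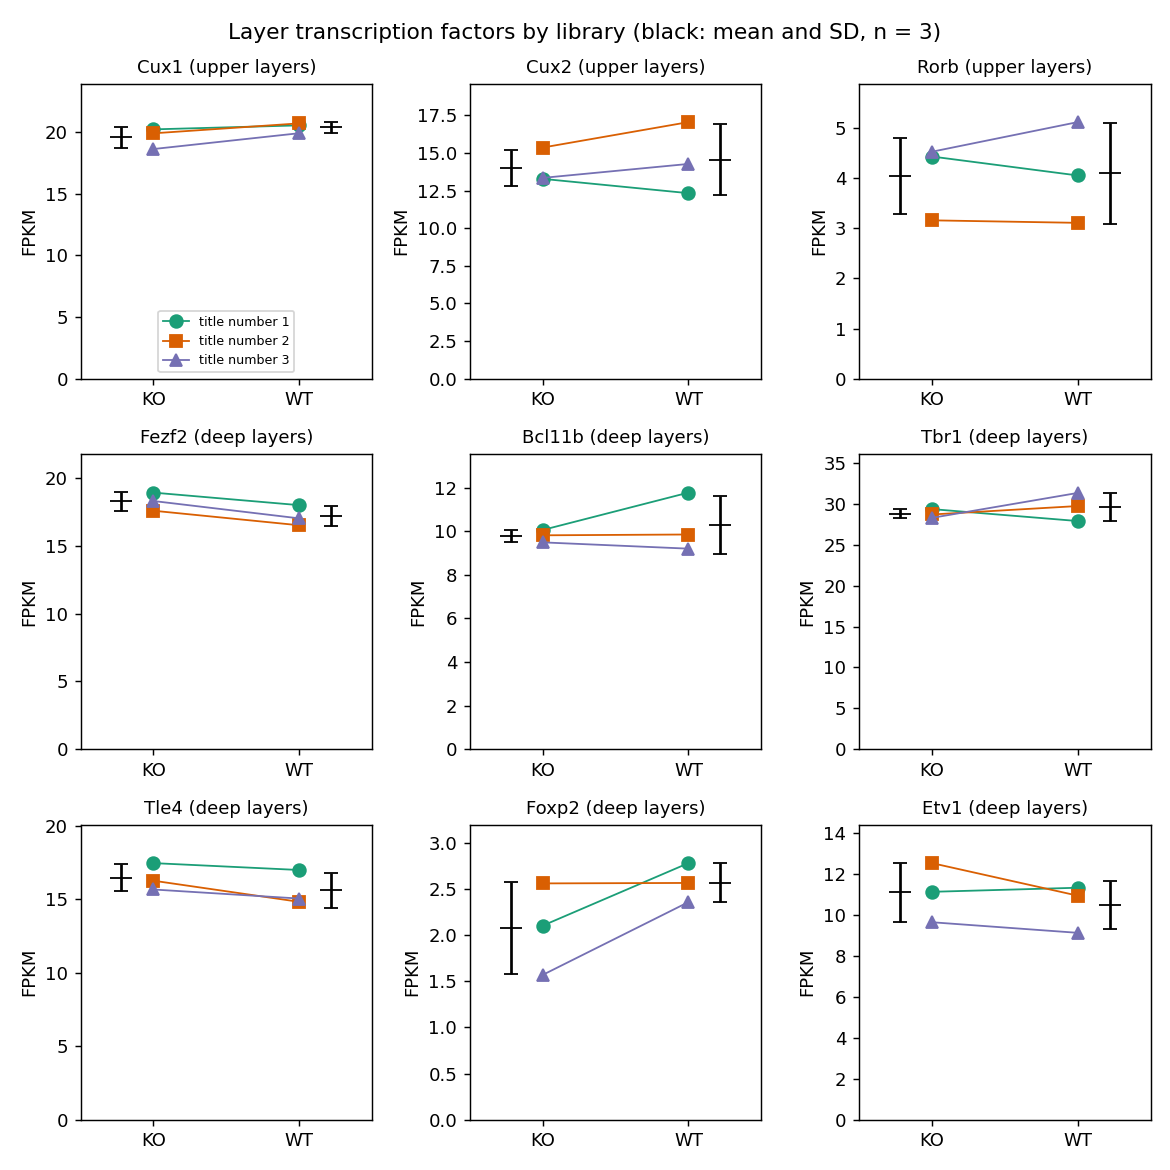
FPKM of the 9 genes in the 3 KO (left) and 3 WT (right) libraries, with lines joining libraries of 1 title number and black bars for the mean and SD (n = 3). KO and WT overlap in every panel, and the libraries numbered 2 are the lowest of each genotype for *Rorb* and the highest for *Cux2*.

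Among the upper layer genes, *Cux1* measured 20.2, 19.9 and 18.6 FPKM in KO replicates 1, 2 and 3, against 20.6, 20.7 and 19.9 FPKM in WT replicates 1, 2 and 3. KO was the lower one within each of the 3 title numbers, a direction that 9.59% of all genes shared, but the groups overlapped. The log2 fold change was -0.06 (SE 0.07, 95% interval -0.21 to 0.10). These values rest on 1368 to 2382 reads per library.

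*Cux2*, whose protein is found more strictly in upper layer neurons, measured 13.3, 15.4 and 13.3 FPKM in KO replicates 1, 2 and 3, against 12.3, 17.1 and 14.3 FPKM in WT. The library pair numbered 2 was highest in both genotypes, and WT spread more widely than KO. The means were 14.0 ± 1.18 FPKM in KO and 14.6 ± 2.37 FPKM in WT (SD, n = 3 each), and the log2 fold change was -0.04 (SE 0.12, interval -0.32 to 0.23), and 0.069 without WT replicate 2.

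*Rorb* lies on chromosome 19 (NM_146095, chr19:18930609-19001117, minus strand). It measured 4.44, 3.16 and 4.53 FPKM in KO replicates 1, 2 and 3, against 4.06, 3.11 and 5.12 FPKM in WT. Both libraries numbered 2 were the lowest, and the genotype means were almost the same, at 4.04 ± 0.765 FPKM in KO and 4.10 ± 1.01 FPKM in WT (SD, n = 3 each). The log2 fold change was -0.01 (SE 0.17), with the widest interval of the 9 genes, -0.40 to 0.38, or -0.17 to 0.15 with the block. It was 0.12 without KO replicate 2 and 0.13 without WT replicate 3.

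Among the deep layer genes, the subcortical projection factor *Fezf2* (NM_080433, chr14:12341892-12345865, minus strand) measured 18.9, 17.6 and 18.3 FPKM in KO replicates 1, 2 and 3, against 18.0, 16.5 and 17.0 FPKM in WT. KO was the higher one within each of the 3 title numbers, by 0.07, 0.09 and 0.10 on the log2(FPKM + 1) scale, a direction that 12.3% of all genes shared. The groups overlapped because KO replicate 2 lay below WT replicate 1. The log2 fold change was 0.08 (SE 0.07, interval -0.08 to 0.25, or -0.02 to 0.19 with the block).

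*Bcl11b* (NM_001286343, chr12:107910403-108003414, minus strand), the target of FEZF2 in layer 5 that striatal medium spiny neurons also express, measured 10.1, 9.81 and 9.48 FPKM in KO replicates 1, 2 and 3, against 11.8, 9.85 and 9.20 FPKM in WT. The KO values lay close together, and WT replicate 1 was higher than the other 5 libraries. Its log2 fold change was -0.06 (SE 0.10, interval -0.28 to 0.16), and without WT replicate 1 it was 0.04.

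*Tbr1* (NM_009322, chr2:61804453-61814113, plus strand) is the T-box factor of layer 6. It was the most abundant of the 9, at 29.4, 28.7 and 28.3 FPKM in KO replicates 1, 2 and 3, against 27.9, 29.7 and 31.3 FPKM in WT. KO lay within the range of WT. Its log2 fold change was -0.04 (SE 0.07, interval -0.20 to 0.12).

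*Tle4* (NM_001302951, chr19:14448072-14597213, minus strand) encodes a corepressor of the Groucho family that marks neurons of layer 6 projecting to the thalamus. It measured 17.4, 16.3 and 15.7 FPKM in KO replicates 1, 2 and 3, against 17.0, 14.8 and 15.04 FPKM in WT. As for *Fezf2*, KO was the higher one within each title number, and the log2 fold change was 0.07 (SE 0.08, interval -0.12 to 0.26).

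*Etv1* (NM_001163154, chr12:38783711-38868215, plus strand), an ETS factor gene of layer 5 also known as *ER81*, measured 11.1, 12.5 and 9.65 FPKM in KO replicates 1, 2 and 3, against 11.3, 10.9 and 9.13 FPKM in WT. The libraries numbered 3 were the lowest of each genotype. Its log2 fold change was 0.08 (SE 0.12, interval -0.19 to 0.34), and it turned to -0.0078 without KO replicate 2 and -0.011 without WT replicate 3.

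*Foxp2* (NM_001286607, chr6:15185506-15441977, plus strand), a forkhead factor gene of layer 6 neurons, had the lowest level and the largest difference of the 9. It measured 2.10, 2.56 and 1.57 FPKM in KO replicates 1, 2 and 3, against 2.78, 2.57 and 2.36 FPKM in WT replicates 1, 2 and 3. KO replicates 1 and 3 lay below every WT library, while KO replicate 2 lay within the WT range. The means were 2.08 ± 0.496 FPKM in KO and 2.57 ± 0.212 FPKM in WT (SD, n = 3 each), from 318 to 368 reads per library in KO and 447 to 674 reads in WT.

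The log2 fold change of *Foxp2* was -0.22 (SE 0.13, interval -0.52 to 0.07), and it did not pass the test. With the block the interval was -0.43 to -0.02, the unadjusted p 0.0359 and the adjusted p 0.999 (limma). The log2 fold change was -0.34 without KO replicate 2 and -0.10 without KO replicate 3, so single libraries decided its size. Its sign was negative under each alternative tried, with a range of -0.36 to -0.10. With limma voom on reads recovered from the FPKM steps and the block, it was -0.34 (interval -0.57 to -0.11). There the unadjusted p was 0.00762 and the adjusted p 0.89 (limma voom), so it was not called. The pseudocount of 1 understates the change of a gene at this level, and at 0.1 the log2 fold change was -0.32 (SE 0.18, limma adjusted p 0.99 or more).

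**Figure D3:**
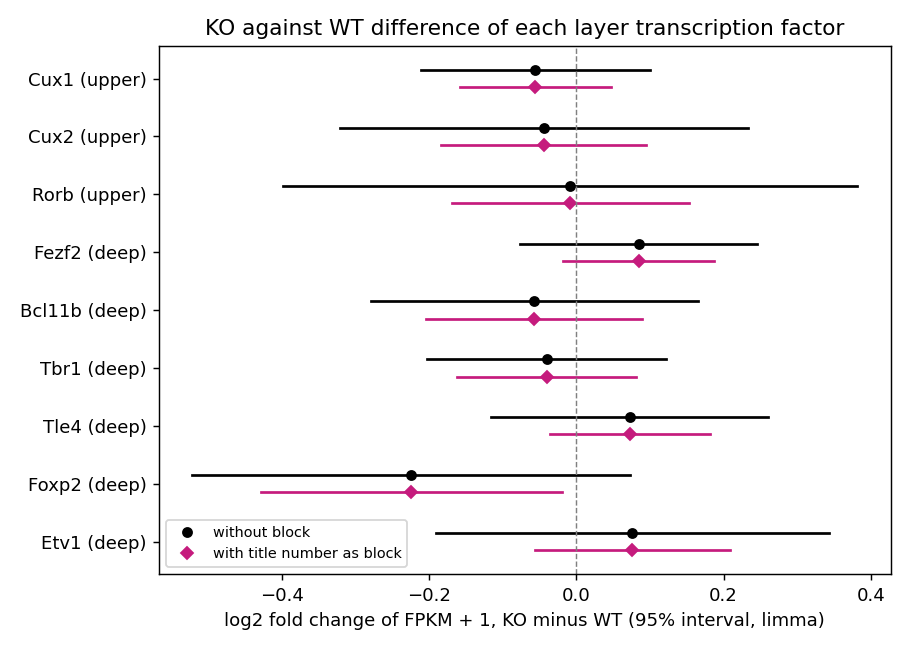
Log2 fold change of FPKM + 1, KO minus WT, for each gene with its 95% interval from limma, without (black) and with (pink) the title number as a block. Without the block all 9 intervals include 0, and with it that of *Foxp2* ends just below 0 at an adjusted p of 0.999.

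Striatal medium spiny neurons also express *Foxp2* and *Bcl11b*, and thalamic neurons express *Foxp2* and *Rorb*, so markers of both regions were set beside them. All 11 striatal markers in the list were detected in all libraries. Their summed level was 143, 332 and 146 FPKM in KO replicates 1, 2 and 3, against 337, 314 and 286 FPKM in WT replicates 1, 2 and 3. *Ppp1r1b*, the most abundant of them, which encodes the dopamine-regulated phosphatase inhibitor DARPP-32, measured 31.8, 101.4 and 35.9 FPKM in KO, against 103, 91.7 and 81.1 FPKM in WT. KO replicates 1 and 3 were thus low for the striatal list and for *Foxp2*, and KO replicate 2 was low for neither.

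Within title numbers, the median KO minus WT difference of the striatal list was -1.09, 0.03 and -0.82 on the log2(FPKM + 1) scale for numbers 1, 2 and 3, with 11 of 11, 3 of 11 and 11 of 11 genes lower in KO. *Foxp2* differed by -0.29, -0.0020 and -0.39, and *Bcl11b* by -0.21, -0.0049 and 0.04. Of the 11 striatal genes 0 were called by limma at an adjusted p under 0.05, with or without the block. An unadjusted p under 0.05 was found for 4 of 11 without the block, against 0.63% of all genes tested. With the block it was found for 11 of 11, against 3.91%. Among them *Tac1*, which encodes the precursor of substance P, had a log2 fold change of -0.29 (SE 0.11). The part of striatal RNA in the *Foxp2* values was not tested.

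Mature oligodendrocyte markers went the same way in the same pairs, with 8 of 8 genes lower in KO in numbers 1 and 3 and 0 of 8 in number 2, and a list median of -0.25, 0.18 and -0.49. *Mbp*, the myelin basic protein gene, averaged 973 ± 302 FPKM in KO and 1138 ± 249 FPKM in WT (SD, n = 3 each). The thalamus list summed to 44.6 to 49.5 FPKM in KO and 40.5 to 47.2 FPKM in WT. Its genes ran from *Gbx2*, at most 0.083 FPKM, to *Ramp3*, at 17.6 to 27.1 FPKM. Its medians within numbers were -0.04, 0.12 and -0.06, with 2, 6 and 2 of 6 genes higher in KO. None of the 8 oligodendrocyte or 6 thalamus genes that passed the filter was called by limma, and 0 had an unadjusted p under 0.05 with or without the block.

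The remaining lists had 0 genes called as well. Their counts under an unadjusted p of 0.05 stand beside 0.63% of all genes tested without the block and 3.91% with it (limma). Of 10 interneuron genes 2 were higher and 8 lower in KO (median -0.07), and 2 had an unadjusted p under 0.05 with the block (limma). *Gad2*, which encodes a GABA-synthesising enzyme, averaged 34.5 ± 3.30 FPKM in KO and 37.6 ± 3.32 FPKM in WT (SD, n = 3 each). Of 5 hippocampal genes that passed the filter, from a list of 7, 4 were higher (median 0.26). Within numbers 1, 2 and 3 their medians were -0.17, 0.17 and 0.57, with 4, 1 and 0 genes lower in KO. With the block 1 was under 0.05, *Fibcd1*, at 11.4 ± 2.44 FPKM in KO and 9.26 ± 1.19 FPKM in WT. Of 8 vascular and meningeal genes 7 were higher (median 0.19), with 1 under 0.05 without and 4 with the block. *Col1a2*, a collagen gene, measured 9.31, 7.52 and 8.31 FPKM in KO replicates 1, 2 and 3, against 6.73, 7.30 and 6.84 FPKM in WT. KO and WT did not overlap for 3 of the 8 genes, *Col1a2* among them, beside 2.95% of the genes tested. Astrocyte genes (5 of 7 higher, median 0.06) and microglia genes (5 of 6 lower, median -0.04) each had 1 under 0.05 with the block. Within numbers 1, 2 and 3 the medians were -0.06, 0.02 and -0.09 for interneuron genes and -0.11, 0.03 and -0.05 for microglia genes. They were 0.01, 0.12 and 0.09 for astrocyte genes and 0.23, 0.05 and 0.19 for vascular and meningeal genes. The part of these other cells in the values of the layer genes was not tested.

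**Figure D4:**
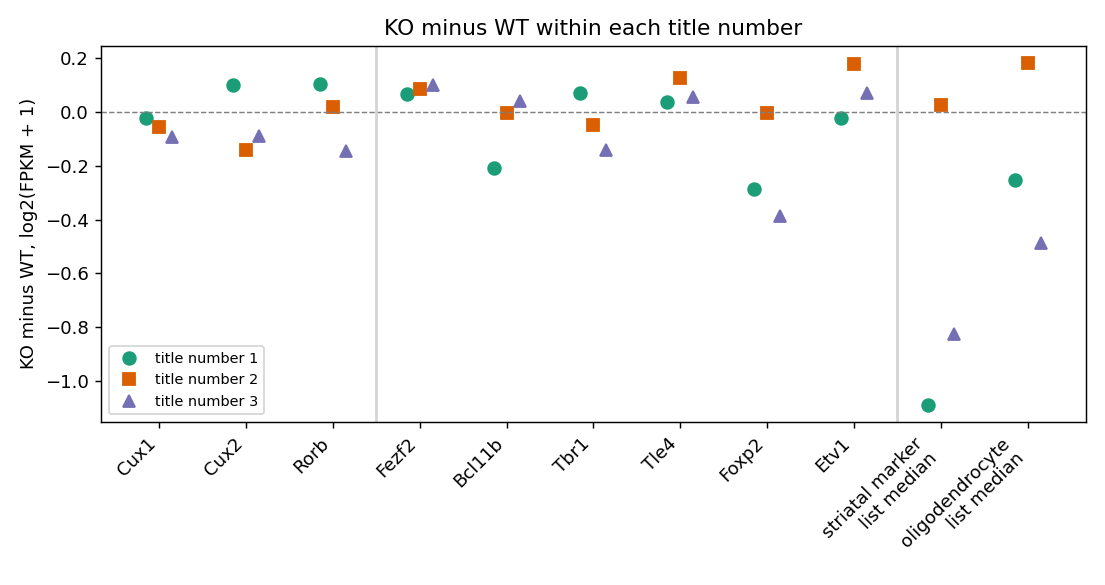
KO minus WT difference in log2(FPKM + 1) within each title number for the 9 genes, and for the medians of the striatal and the oligodendrocyte marker lists. *Foxp2* is near 0 in number 2 and at -0.29 and -0.39 in numbers 1 and 3, and the medians of both lists are lower in KO in those numbers too. So are those of the thalamus, interneuron and microglia lists, which are not drawn.

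The balance of upper against deep layer genes was summarised in each library as the mean log2(FPKM + 1) of the 3 upper layer genes minus that of the 6 deep layer genes. It was -0.13, -0.22 and -0.03 in KO replicates 1, 2 and 3, against -0.25, -0.10 and 0.04 in WT replicates 1, 2 and 3. The mean was -0.12 ± 0.09 in KO and -0.10 ± 0.14 in WT (SD, n = 3 each), a difference of -0.02. The SD within either genotype was larger than this, and the sign turned without KO replicate 2 (0.025) or without WT replicate 3 (0.050). Within title numbers the difference was 0.12, -0.12 and -0.07, so its sign varied between pairs. No test was made of this score, since its members were chosen. Without *Foxp2* and *Bcl11b* the difference was -0.084, larger than the SD within KO of 0.068 and smaller than that within WT of 0.117. It was -0.01 without *Cux1* and -0.04 without *Rorb*.

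By level, per kilobase of exon and over all 6 libraries, the order was *Tbr1*, *Cux1*, *Fezf2*, *Tle4*, *Cux2*, *Etv1*, *Bcl11b*, *Rorb* and *Foxp2*, with means of 29.2, 20.003, 17.7, 16.03, 14.3, 10.8, 10.03, 4.07 and 2.32 FPKM. The ranges of *Tbr1* and *Cux1*, of *Bcl11b* and *Rorb*, and of *Rorb* and *Foxp2* did not overlap. Those of every other pair of neighbours did. The order held within all 6 libraries for every pair of neighbours except *Tle4* over *Cux2*, which held in 5, and *Etv1* over *Bcl11b*, which held in 4. The value per kilobase depends on the transcript model of each row. The rows of *Bcl11b* and *Foxp2* are 7337 and 6341 bp long, where their matched transcripts are 2522 and 2687 bp. The longest protein-coding transcripts of these 2 genes are 8111 and 6760 bp.

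An F test of the title number in limma, with genotype in the same fit, called 3936 of 12863 genes at an adjusted p under 0.05 (30.6%). This count was 2038 without WT replicate 1, 2076 without KO replicate 1 and 1347 when genes of all levels were tested. Of the 9 layer genes 3 were called, *Rorb*, *Cux2* and *Etv1*, or 33.3%, close to the share of all genes, and 1 was called without WT replicate 1 and 0 when genes of all levels were tested. Each number holds 1 KO and 1 WT library, so these differences do not follow genotype.

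Of the upper layer genes *Rorb* and *Cux2*, the first was lowest and the second highest in title number 2, and both were higher in number 3 than in number 1. Whether their courses differ was not tested. *Rorb* averaged 4.25, 3.14 and 4.83 FPKM in numbers 1, 2 and 3 (adjusted p 0.0143, limma F test), a ratio of 1.54 between the highest and the lowest. *Cux2* averaged 12.8, 16.2 and 13.8 FPKM (adjusted p 0.0347, ratio 1.27). The libraries numbered 2 were the lowest 2 of 6 for *Rorb* and the highest 2 of 6 for *Cux2*. *Rorb* was called with each library left out in turn. *Cux2* was not called without WT replicate 1 (adjusted p 0.0863) or without WT replicate 2 (0.135), nor was either gene when genes of all levels were tested (0.0642 for *Rorb* and 0.0941 for *Cux2*).

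*Etv1* averaged 11.2, 11.7 and 9.39 FPKM in numbers 1, 2 and 3 (adjusted p 0.0339, limma F test, ratio 1.251), and both libraries numbered 3 lay below the other 4. This call was lost without KO replicate 1, KO replicate 3, WT replicate 1 or WT replicate 3 (adjusted p 0.0532, 0.108, 0.0655 and 0.113) and when genes of all levels were tested (0.0871). *Foxp2* was not called (adjusted p 0.142) but was without WT replicate 2 (0.0382). The other 5 genes had an adjusted p between 0.109 (*Tle4*) and 0.752 (*Tbr1*), and *Tbr1*, *Cux1* and *Fezf2* were the steadiest, with ratios between title numbers of 1.04, 1.06 and 1.08.

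**Figure D5:**
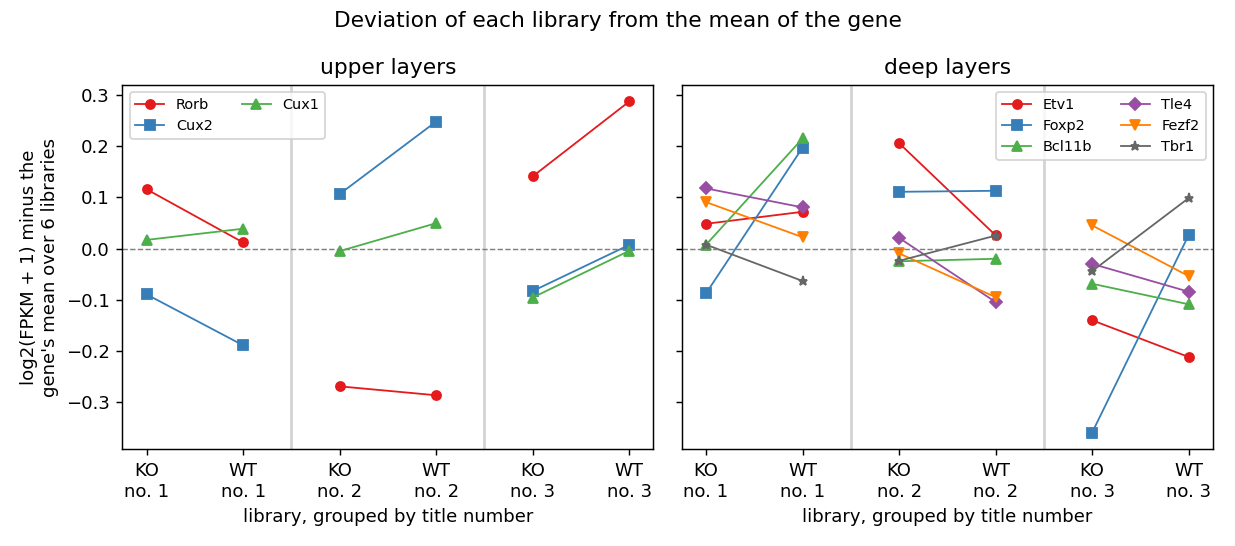
Deviation of log2(FPKM + 1) from the gene's mean over the 6 libraries, with libraries grouped by title number (KO left of WT) and lines joining the pair. In number 2 *Rorb* is low and *Cux2* high in both genotypes, and in number 3 *Etv1* is low in both.

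*Rorb* and *Foxp2* varied most between libraries, with an SD over the 6 libraries of 0.23 and 0.20 on the log2(FPKM + 1) scale. Genes with the most similar course were sought as the smallest root mean square difference over the 6 libraries after centring each gene on its mean. For *Rorb* these were *Coro1a*, *Xbp1*, *Dgcr6*, *Cabyr* and *Mtg1*, at 0.0219, 0.0267, 0.0358, 0.0386 and 0.0404. *Coro1a* measured 65.3, 50.02 and 67.3 FPKM in KO replicates 1, 2 and 3, against 61.3, 51.3 and 73.2 FPKM in WT, low in both libraries numbered 2 as *Rorb* was. That likeness follows from how *Coro1a* was picked, as the closest of all tested genes over the same 6 libraries, and is no further result. For *Foxp2* they were *Ccdc24*, *1700027H10Rik*, *BC064078*, *Mbip* and *Olfm3*, at 0.0688 to 0.0734, less close than for *Rorb*.

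Other genes of the same layers were likewise not called between KO and WT by limma. Without the block 0 had an unadjusted p under 0.05, against 0.63% of all genes tested. With it, 1 of 16 genes of layers 2 to 4, 3 of 11 of layer 5 and 1 of 11 of layer 6 did, against 3.91%. Of 16 measured genes of layers 2 to 4, 10 were higher and 6 lower in KO and 0 passed, with a median log2 fold change of 0.01, beside 0.01 over all genes tested. *Scnn1a*, a sodium channel subunit gene of layer 4, measured 1.77, 1.56 and 1.59 FPKM in KO replicates 1, 2 and 3, against 1.33, 1.30 and 1.35 FPKM in WT. It was the 1 gene of these 16 without overlap, beside 2.95% of the genes tested. Its log2 fold change was 0.18 (SE 0.08, limma adjusted p 0.9999), from at most 177 reads per library. *Lhx2*, a LIM homeodomain factor gene of upper layers, averaged 27.5 ± 1.77 FPKM in KO and 25.6 ± 1.04 FPKM in WT (SD, n = 3 each). *Inhba* was below the filter, at 1.70 FPKM or less.

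Of 11 measured genes of layer 5, 9 were higher and 2 lower in KO and 0 passed, with a median of 0.06. *Pcp4*, which encodes a calmodulin-binding peptide, averaged 370 ± 20.1 FPKM in KO and 426 ± 62.1 FPKM in WT (log2 fold change -0.19, SE 0.12), and *Sulf2*, a heparan sulfatase gene, 49.1 ± 3.44 FPKM in KO and 45.4 ± 2.16 FPKM in WT (0.11, SE 0.08). *Pcp4* is abundant in striatal neurons too. Of 11 genes of layer 6 and the subplate, 4 were higher and 7 lower and 0 passed, with a median of -0.0026. *Zfpm2*, a cofactor gene of corticothalamic neurons, measured 4.83, 4.27 and 4.10 FPKM in KO replicates 1, 2 and 3, against 4.33, 3.56 and 2.92 FPKM in WT. KO was higher within each number but the groups overlapped (log2 fold change 0.24, SE 0.12). *Syt6*, a synaptotagmin gene, averaged 5.49 ± 1.32 FPKM in KO and 6.17 ± 0.889 FPKM in WT.

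The 9 genes of all cortical excitatory neurons had 7 members higher and 2 lower in KO, 0 called, and a median of 0.04. *Neurod1* and *Neurod6*, basic helix-loop-helix factor genes of these neurons, had the smallest unadjusted p, with log2 fold changes of 0.07 (SE 0.08) and 0.08 (SE 0.11).

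Between title numbers, 5 of 16 other genes of layers 2 to 4 were called (31.2%), 3 of 11 of layer 5 (27.3%) and 4 of 11 of layer 6 and the subplate (36.4%), each near the 30.6% of all genes. Named after their values were seen, the 5 were *Kcnh5*, *Pou3f1*, *Calb1*, *Mef2c* and *Otof*, the 3 were *Crym*, *Tcerg1l* and *Rbp4*, and the 4 were *Sox5*, *Ntsr1*, *Rprm* and *Hs3st4*. *Kcnh5*, a potassium channel gene, measured 2.87, 5.04 and 2.04 FPKM in KO replicates 1, 2 and 3, against 2.96, 5.71 and 2.09 FPKM in WT, high in number 2 as *Cux2* was. *Crym*, which encodes a thyroid hormone-binding protein, measured 137, 95.2 and 155 FPKM in KO, against 132, 90.0 and 129 FPKM in WT, low in number 2 as *Rorb* was.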

How the data were processed

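Messenger RNA of visual cortex was sequenced in 3 KO and 3 WT libraries, prepared with a stranded kit per the labels' protocols. The authors deposited 1 table of FPKM values, made with HOMER over exons on mm10 with genes condensed to 1 row each, per the file headers. Only 6 of the 12 libraries named in the header command have columns. That command sets no strand, so genes that overlap or run antisense to each other may share reads. STAR 2.4.0k, HOMER 4.8.3 and FastQC are named in the submitters' processing notes. With the deposited row lengths, FPKM steps gave whole reads: with the best total per library 100% of 4897 to 7147 low values per library were within 0.1 of a whole read.

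Genes at a mean FPKM of at least 1 were fitted on the log2(FPKM + 1) scale with an intensity trend in limma 3.58.1 under R 4.3.3, after the script was tested on simulated data. Transcript models and sequences came from GENCODE M21. Python 3.11.15 was used for summaries. The replicate number is the middle number of the title. Deviations from the group means correlated at 0.43, 0.71 and 0.67 between libraries of the same number, and at -0.61 to -0.06 between others. Such deviations cancel out within a group, so positive values in some pairs bring negative ones in others by construction. The number was taken as a pairing and used as a block in an alternative fit. No 2 libraries of the same genotype were duplicates (chi-square per degree of freedom 13.8 or more). With 3 against 3 libraries an exact permutation test cannot go below p = 0.1.

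The genes and lists were chosen with earlier results of these data known. The rule for naming takes *Chrdl1*, the 9 genes, from each marker list the 2 genes of smallest unadjusted p, the most abundant gene of 4 lists of other tissues or cells, and the 5 genes most like the 2 most variable members. Some of the genes this rule takes are not reported here. *Ccn2* was found under its older symbol, *Ctgf*.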

Additional observations from a re-analysis of the deposited data

How the results depend on the processing

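For the 9 layer genes, 12 alternatives per gene gave 108 log2 fold changes of KO minus WT in total: 0 were called, 102 kept the sign and 6 reversed. Adding the replicate block or dropping the filter cannot change a gene's own difference of means, so those signs were fixed in advance. The count of signs kept is thus no measure of stability. The reversals came with 1 library left out. *Cux2* ranged from -0.150 to 0.069 (positive without WT replicate 2), *Rorb* from -0.154 to 0.133 (positive without KO replicate 2 or WT replicate 3), *Bcl11b* from -0.126 to 0.036 (positive without WT replicate 1) and *Etv1* from -0.011 to 0.165 (negative without KO replicate 2 or WT replicate 3). The replicate block left the count of layer genes called at 0 and the count over all genes at 1, and changed no other call. Over all genes the count called was 2 with a pseudocount of 0.1, 6 without the filter, 2 with limma voom on recovered reads and the block, and 1 to 4 with 1 library left out, with 4 without KO replicate 2 and 2 without WT replicate 2.

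The upper minus deep difference, -0.021, moved by less than the SD within WT of 0.143 under every alternative. That SD is far larger than the difference, so this rule could hardly fail and does not show stability. The difference lay between -0.09 and 0.05 with 1 library left out, and its sign turned without KO replicate 2 or WT replicate 3. For the title number, leaving out libraries was an alternative chosen after seeing the data. It gave 2038 to 3923 genes and 1 to 3 layer genes called. Without the filter 1347 genes and 0 layer genes were called, over 19781 genes tested. The causes were not tested. Median scaling moved the library medians by at most 0.0206 (log2). Depth limits *Foxp2* most, with 318 reads in its lowest library, and intervals on reads would cover counting error only.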
